A study of Rattus norvegicus with 6 samples.

Results

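The acinar digestive enzyme and secretory genes are the transcripts by which the exocrine pancreas makes, packs and releases its juice. They were taken from a list of 36 rat gene symbols and matched to the array through the RefSeq transcript that each probe names. A probe was found for 30 of the 36 genes, 1 probe for each, on an array of 24684 probes of which 14294 could be named, for 13903 genes. All 30 entered the test, which covered 18355 probes. The genes without a matched probe were Ctrl, Prss1, Try4, Try5, Sycn and Spink3. Try4 is an older name that Prss3 also carries, and Spink3 is an older name of Spink1, which was measured.

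The arrays held RNA of pancreatic islets, freed from the pancreas with collagenase, from adult male rats (3 arrays) and from pools of rats aged 10 days, called P10 (3 arrays). The labels state neither the strain nor the age of the adults nor whether the P10 pools were male, and the adult samples are single rats where the P10 samples are pools. The study set immature against mature islets, and no treatment or transgene is named. Adult arrays 2 and 3 differed by no more than repeated spots of 1 array, as did P10 arrays 1 and 2. Their squared differences over spot noise had ratios of 0.67 and 0.54. Each pair was averaged and counted as 1 sample (n = 2 per stage). P10 array 3 had ratios of 1.24 and 0.85 with P10 arrays 1 and 2, so counting it apart is a close choice. The P10 stage may hold little more than 1 distinct sample. P-values therefore measure only the spread between these counted samples, which may be technical.

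Acinar cells build zymogens, inactive enzyme precursors, in a large endoplasmic reticulum (ER), store them in zymogen granules and release them when cholecystokinin or acetylcholine arrives. The PTF1 complex, made of PTF1A, RBPJL and an E protein, binds the promoters of many of these genes. Islets make hormones and not digestive enzymes, and collagenase-isolated islets can carry attached acinar tissue in amounts that vary between preparations. In RNA of whole preparations, fewer acinar cells and less acinar RNA per cell cannot be told apart.

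Between 17823 and 18725 probes per array were well above background, and 0 were saturated. The acinar markers Ptf1a, Rbpjl, Cpa1, Cela1, Ctrb1 and Pnlip were well above background on all 6 arrays, as were the islet hormone genes Ins1, Ins2, Gcg and Sst. The RNA labelled as islet thus held acinar transcripts at both stages. Levels below are log2 processed signals minus the array's 75th percentile, and each change is adult minus P10 with its standard error (SE). The array's 75th percentile itself lay at 10.93 to 11.36 in adult islets and at 9.92 to 9.99 in P10 islets (log2), so every change depends on how arrays are scaled. Each change of an acinar gene is therefore given with quantile normalization as well, which forces all arrays to 1 distribution. Changes of single companion genes are at the 75th percentile scaling unless stated, and their size can differ with quantile normalization. The median of all tested probes was -0.23 under the first scaling and -0.02 under the second.

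Acinar genes were more often lower than higher in adult islets, and how many passed the test depended on the scaling. With the 75th percentile subtracted, 26 of 30 were lower, 2 were higher (Amy1 and Prss3) and 2 did not pass (Cela1 and Pnlip), with a median of -1.34. Of all probes tested, 31% were lower and 21.3% higher (limma, adjusted p under 0.05). With quantile normalization 13 were lower, 3 were higher (Amy1, Prss3 and Pnlip) and 14 did not pass, with a median of -0.33, beside 28.7% lower and 28.4% higher among all probes. The 13 were Pnliprp2, Clps, Cel, Cpa1, Cuzd1, Klk1, Spink1, Cckar, Serpini2, Pdia2, Erp27, Gatm and Aqp8. Counts given below for subsets and companion lists from these 2 fits are to be read beside the same shares of all probes. Without P10 replicate 3, which leaves a single counted P10 sample, 11 were lower and 0 higher at the 75th percentile scaling, beside 14% lower and 8.53% higher among all probes.

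Adult arrays 2 and 3 were on another slide than the other 4 arrays, as read from the scan times. The counted adult samples thus differ in slide as well, and their spread cannot be told apart from a slide difference. The stages can be compared within a slide only through adult array 1 and the 3 P10 arrays. On that slide alone 27 of 29 genes were lower and 2 higher, with a median of -1.62, beside 48.6% lower and 30.3% higher among all probes tested there. With slide as a block over all 6 arrays the change of each gene was the same, since the other slide held no P10 array. That fit, in which every array counts as a sample, gave 27 of 28 lower and 1 higher, with a median of -1.71, beside 50% lower and 30.9% higher. On the shared slide quantile normalization gave 18 lower and 4 higher, with a median of -0.48, beside 38.3% and 36.5%. The spread in the fits on the shared slide comes from the 3 P10 arrays alone. In the fit with slide as a block it comes from adult arrays 2 and 3 as well. Within each stage these arrays barely differ, and adult array 1 is assumed to vary like them.

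**Figure D1:**
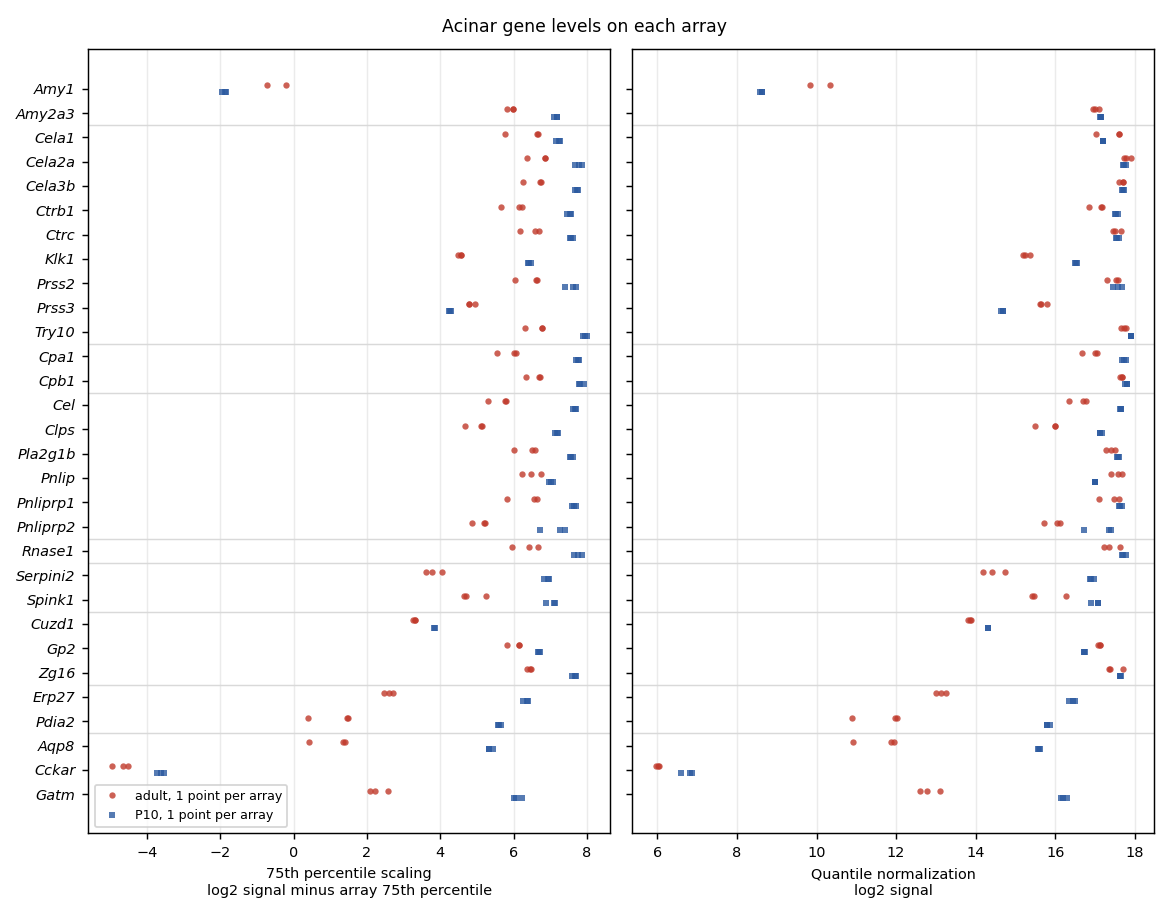
Level of each acinar gene (rows, grouped by role) on each array, as log2 signal minus the array's 75th percentile (left) and as quantile-normalized log2 signal (right), with 1 point per array, adult in red circles and P10 in blue squares. The folding, water channel and creatine synthesis genes at the bottom stand apart by stage in both panels, while most proteases overlap or nearly so on the right.

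Under both scalings the 4 largest falls were not of digestive enzymes but of 2 folding genes (Pdia2 and Erp27), a water channel (Aqp8) and a creatine synthesis gene (Gatm). Pdia2, a protein disulfide isomerase of the pancreas that forms disulfide bonds in zymogens, had levels of 0.40, 1.47 and 1.49 on the adult arrays, against 5.65, 5.60 and 5.57 on the P10 arrays. The stages did not overlap, and adult array 1 lay below the other adult arrays. It fell by 4.66 ± 0.41 (25.2-fold; limma, adjusted p = 0.00326), and its change was -4.36 with quantile normalization (limma, adjusted p = 0.0022). Erp27, a non-catalytic relative of Pdia2 in the same compartment, had 2.60, 2.71 and 2.46 in adult islets, against 6.25, 6.39 and 6.36 in P10 islets. Its arrays lay close together within each stage. It fell by 3.75 ± 0.13 (13.4-fold; limma, adjusted p = 0.00131), and its change was -3.31 with quantile normalization. Of 17 general ER folding genes tested, 3 were lower and 3 higher at the 75th percentile scaling (median 0.06), and 3 lower and 7 higher with quantile normalization (median 0.31). Those that moved most at the 75th percentile scaling were Prdx4 (-2.70), Sel1l (-2.65), P4hb (-1.32) and Dnajb9 (1.76). With quantile normalization these were -2.36, -2.59, -0.69 and 1.78.

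Aqp8, a water channel of the acinar cell membrane, had 0.43, 1.34 and 1.41 on the adult arrays, against 5.33, 5.42 and 5.32 on the P10 arrays. It fell by 4.45 ± 0.36 (21.8-fold; limma, adjusted p = 0.00291), and its change was -4.18 with quantile normalization, with adult array 1 again the lowest. Gatm makes guanidinoacetate, the precursor of creatine, and is rich in pancreas and kidney. It had 2.57, 2.22 and 2.08 in adult islets, against 6.07, 6.22 and 6.01 in P10 islets. It fell by 3.72 ± 0.20 (13.1-fold; limma, adjusted p = 0.00165), and its change was -3.31 with quantile normalization. Here adult array 1 was the highest of the adult arrays. Cckar, the cholecystokinin receptor that drives enzyme release in rodents, was dim, at -4.95, -4.52 and -4.65 in adult islets, against -3.74, -3.52 and -3.62 in P10 islets. It fell by 1.14 ± 0.18 (limma, adjusted p = 0.012), and its change was -0.76 with quantile normalization (limma, adjusted p = 0.00965).

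Both protease inhibitors fell under both scalings. Serpini2, a serpin of the exocrine pancreas, had 4.04, 3.77 and 3.61 in adult islets, against 6.84, 6.96 and 6.94 in P10 islets. It fell by 3.06 ± 0.18 (8.31-fold; limma, adjusted p = 0.0018), and its change was -2.40 with quantile normalization. Spink1, which blocks trypsin that becomes active too early, had 5.24, 4.65 and 4.70 in adult islets, against 7.09, 7.14 and 6.88 in P10 islets. It fell by 2.04 ± 0.25 (4.11-fold; limma, adjusted p = 0.00677), and its change was -1.14 with quantile normalization (limma, adjusted p = 0.0381). In contrast to Pdia2 and Aqp8, adult array 1 was the highest adult array for both inhibitors.

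Genes of fat digestion split. Colipase (Clps), the cofactor that holds lipase on fat droplets, had 4.67, 5.11 and 5.15 in adult islets, against 7.18, 7.20 and 7.11 in P10 islets. It fell by 2.25 ± 0.21 (4.76-fold; limma, adjusted p = 0.00372), and its change was -1.41 with quantile normalization (limma, adjusted p = 0.00682). Pnliprp2, a lipase that also splits galactolipids and milk fat, had 4.87, 5.23 and 5.18 in adult islets, against 7.40, 6.73 and 7.27 in P10 islets, with P10 array 2 the lowest of its stage. It fell by 2.12 ± 0.19 (limma, adjusted p = 0.00337), and its change was -1.31 with quantile normalization. Cel, the bile salt-stimulated lipase that is also known from milk, fell by 2.11 ± 0.22 (limma, adjusted p = 0.00451), and its change was -1.1 with quantile normalization.

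Pnlip, the triglyceride lipase that colipase serves, had 6.23, 6.46 and 6.74 in adult islets, against 7.02, 7.08 and 6.96 in P10 islets. Its change was -0.59 ± 0.19 (limma, adjusted p = 0.0632), while with quantile normalization it was higher in adult islets by 0.57 ± 0.12 (limma, adjusted p = 0.019). Its direction thus turned with the scaling. The difference between probes on 1 array does not depend on scaling by a constant. The log2 signal of Pnlip minus that of Clps was 1.56, 1.35 and 1.59 on the adult arrays, against -0.16, -0.12 and -0.15 on the P10 arrays, a pair chosen after its values were seen. Signals of different probes do not compare as abundances, but their shift between stages was 1.66, with no overlap. Pnliprp1, a relative with little known lipase activity, and Pla2g1b, the secreted phospholipase A2, changed by -1.43 and -1.31 (limma, adjusted p = 0.0252 and 0.0156), but did not pass with quantile normalization (-0.31 and -0.21).

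Of the 9 measured serine proteases, 7 were lower, 1 was higher and 1 did not pass at the 75th percentile scaling, against 1 lower, 1 higher and 7 not passing with quantile normalization. Among all probes 31% were lower and 21.3% higher, or 28.7% and 28.4% with quantile normalization. Klk1, tissue kallikrein, was the protease lower under both scalings. It had 4.56, 4.56 and 4.48 in adult islets, against 6.40, 6.48 and 6.40 in P10 islets. It fell by 1.88 ± 0.13 (limma, adjusted p = 0.00215), and its change was -1.22 with quantile normalization. Prss2, anionic trypsinogen, had 6.04, 6.64 and 6.62 in adult islets, against 7.70, 7.61 and 7.41 in P10 islets. It fell by 1.20 ± 0.26 (limma, adjusted p = 0.0258), but its change was -0.11 with quantile normalization. The same held for Try10, another trypsin (-1.38 and -0.20), for the chymotrypsinogen Ctrb1 (-1.60 and -0.52), and for Ctrc, which degrades trypsinogen (-1.16 and -0.04). Cela3b gave -1.21 and -0.05. For the elastase genes Cela1 (-0.99, limma adjusted p = 0.0798, and 0.11) and Cela2a (-1.14, and 0.05) the sign turned with the scaling.

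Prss3, named for a trypsin, was higher in adult islets under both scalings. It had 4.79, 4.79 and 4.95 on the adult arrays, against 4.26, 4.30 and 4.24 on the P10 arrays. It was higher by 0.57 ± 0.13 (limma, adjusted p = 0.0292), and by 1.00 with quantile normalization (limma, adjusted p = 0.00425). Within arrays, the Prss3 probe lay 1.77 closer to the Prss2 probe in adult islets. The log2 difference, for a pair also chosen after its values were seen, was -1.25, -1.86 and -1.67 on the adult arrays, against -3.44, -3.31 and -3.17 on the P10 arrays. Rat trypsin and kallikrein genes have near-identical relatives, and whether these probes also bound them was not tested.

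The 2 amylases also parted. Amy2a3, a pancreatic alpha-amylase that splits starch, had 5.83, 5.97 and 5.98 in adult islets, against 7.18, 7.17 and 7.10 in P10 islets. It fell by 1.24 ± 0.14 (limma, adjusted p = 0.0056), but gave -0.10 with quantile normalization (limma, adjusted p = 0.544). Amy1, whose gene product is known from saliva, had -0.72 and -0.19 on adult arrays 1 and 3, against -1.85, -1.86 and -1.94 on the P10 arrays. On adult array 2 its spot was an outlier and was left out. It was higher by 1.44 ± 0.23 (2.71-fold; limma, adjusted p = 0.0121), and by 1.47 with quantile normalization. Whether the Amy1 and Amy2a3 probes bind each other's transcripts was not tested.

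Cpa1, which cuts off aromatic and aliphatic end residues of peptides, had 5.56, 6.0 and 6.07 in adult islets, against 7.79, 7.74 and 7.71 in P10 islets. It fell by 1.94 ± 0.21 (limma, adjusted p = 0.00522), and its change was -0.88 with quantile normalization (limma, adjusted p = 0.0145). Cpb1, which removes basic end residues, fell by 1.31 ± 0.19 (limma, adjusted p = 0.00914), but gave -0.13 with quantile normalization. Rnase1, the secreted ribonuclease, fell by 1.48 ± 0.25 (limma, adjusted p = 0.0144), but gave -0.34 with quantile normalization. Among zymogen granule proteins, Cuzd1, of the granule membrane, changed by -0.53 ± 0.13, and by -0.45 with quantile normalization (limma, adjusted p = 0.0324 and 0.0357). It had 3.32, 3.26 and 3.32 in adult islets, against 3.84 and 3.83 on P10 arrays 1 and 3, its spot on P10 array 2 being an outlier. The lectin Zg16 gave -1.23 (limma, adjusted p = 0.00503) and -0.10. Gp2, the main glycoprotein of the granule membrane, fell by 0.71 ± 0.18 (limma, adjusted p = 0.0356), yet was 0.38 with quantile normalization (limma, adjusted p = 0.0548), so its sign turned. In the authors' deposited table of log2 values, refitted in the same way over fewer probes, Gp2 passed as higher (0.38; limma, adjusted p = 0.0385).

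**Figure D2:**
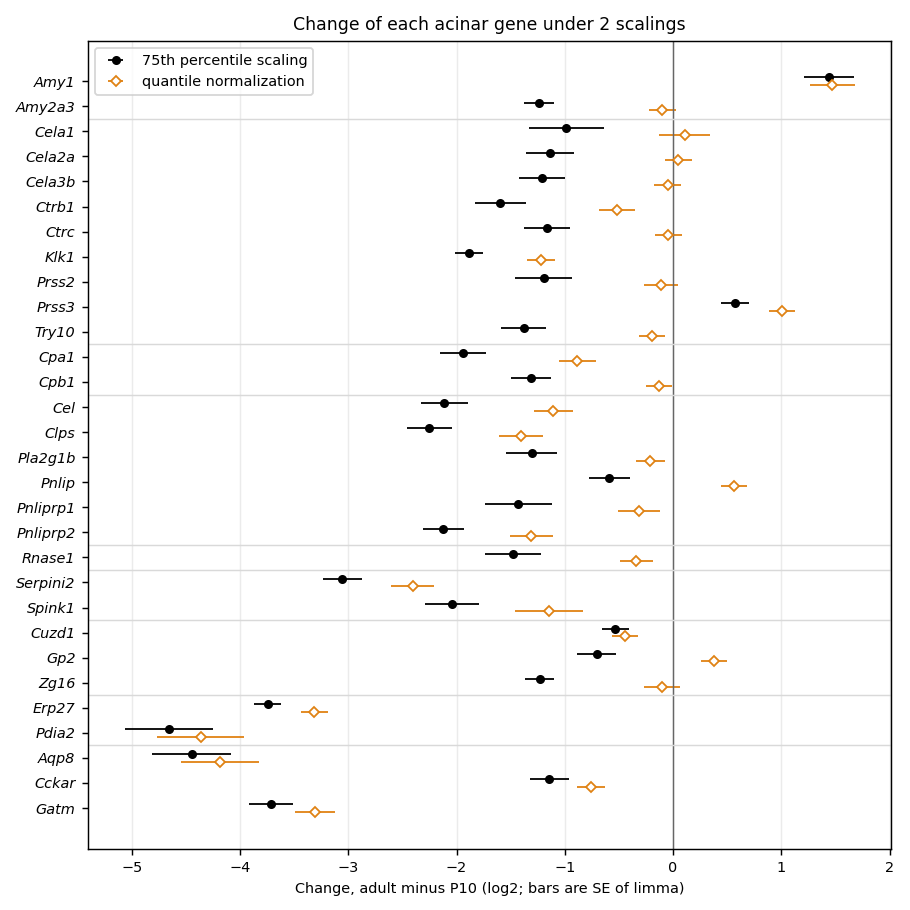
Change of each acinar gene between stages (adult minus P10, log2) at the 75th percentile scaling (black circles) and with quantile normalization (open orange diamonds), with bars for the SE of limma and n = 2 counted samples per stage. Pdia2, Aqp8, Erp27 and Gatm lie between -4.66 and -3.31 under both, while most proteases move from about -1.2 to near 0.

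The enzyme probes sit near the top of the arrays' range, where the scalings part. The mean level of 20 of the 30 genes lay above the 99th percentile of tested probes. Before any scaling, the median of these 20 was 17.25, 17.46 and 17.50 on the adult arrays, against 17.60, 17.54 and 17.53 on the P10 arrays, while the highest signal on any array was 17.98. The other 164 probes in that band had a median change of -1.16, or -0.12 with quantile normalization, close to the -1.31 and -0.16 of the 20 acinar genes. How far signals this near the top follow the amount of RNA was not tested.

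Of the 6 acinar genes between the 95th and 99th percentile the median was -2.47, or -1.81 with quantile normalization, against -0.24 and -0.01 for the other 728 probes there. Pdia2 and Aqp8, between the 90th and 95th, had a median of -4.55, or -4.27, against 0.01 and 0.03 for 916 others. Over the 30 genes Spearman's rho of mean level and change was 0.21, or 0.44 with quantile normalization. This is a description over genes that share the arrays. The bands and rho use the mean of both stages, so a large fall itself moves a gene to a lower band. By their P10 level Serpini2, Klk1 and Erp27 also lay above the 99th percentile (at 99.53, 99.25 and 99.19), so the bands are not independent of the change.

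**Figure D3:**
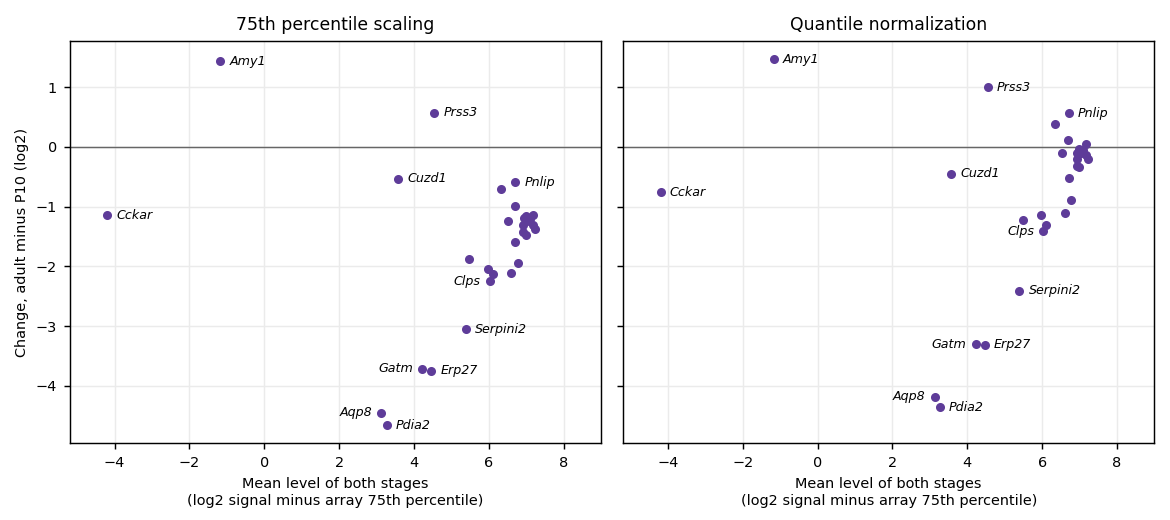
Change between stages (adult minus P10, log2) against the mean level of both stages (log2 signal minus the array's 75th percentile) for the 30 acinar genes, at the 75th percentile scaling (left) and with quantile normalization (right). The cluster of bright enzymes at the right of each panel moves from about -1.3 to near 0, while Pdia2, Aqp8, Erp27, Gatm and Serpini2 stay far below 0.

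Relative to the median of the acinar genes on each array, a measure that drops whatever all of them share, 9 were lower, 5 were higher and 16 did not pass. In that frame 9.73% of all probes were lower and 62.7% higher (limma, adjusted p under 0.05). The 9 were Pdia2 (-3.32), Aqp8 (-3.11), Erp27 (-2.40), Gatm (-2.37), Serpini2 (-1.71), Clps (-0.91), Pnliprp2 (-0.78), Cel (-0.77) and Cpa1 (-0.60). The same 9 genes kept their direction under all 22 alternative settings tried, a count that includes the frame by which they were picked. This does not set them apart. Klk1, Spink1, Ctrb1, Pnliprp1, Rnase1, Try10 and Prss3 also kept theirs under all 22, and Amy1 under the 15 that held it. Some of these changes came close to 0, such as -0.04 for Try10 and -0.09 for Pnliprp1 at the least. These settings reuse the same arrays and are not independent. Averaging all probes of a gene or changing the filter on dim probes left the changes of the 9 genes as they were. Those settings therefore add no support. The 5 higher genes were Amy1 (2.77), Prss3 (1.91), Cuzd1 (0.83), Pnlip (0.75) and Gp2 (0.63). The measured signals of the acinar genes thus changed unequally between the stages. Whether the amounts of RNA did so was not tested, as many of these probes lay near the top of the range.

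Summed over the 28 genes measured on every array, their share of the array's total signal was 2.92%, 3.70% and 3.77% on the adult arrays, against 6.88%, 6.74% and 6.59% on the P10 arrays. This share scales each array to its total. With quantile normalization the summed signal of the same genes was 3064840, 3316210 and 3362810 on the adult arrays, against 4214740, 4157780 and 4171980 on the P10 arrays, a smaller gap. Within the adult stage, at the 75th percentile scaling, array 1 lay below the mean of arrays 2 and 3 for 24 of 30 genes. The median difference was -0.46, against -0.18 over all tested probes. It ran from -1.08 for Pdia2 to 0.56 for Spink1. With quantile normalization array 1 lay below for 20 of 30, with a median of -0.11 against -0.03. The share of all probes below was not counted. Array 1 was also on another slide than arrays 2 and 3, so sample and slide cannot be told apart here. P10 array 3 differed from the mean of P10 arrays 1 and 2 by -0.24 to 0.20.

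The acinar transcription factors were lower as well, under both scalings. All 7 tested were lower in adult islets, with a median of -4.08, or -3.80 with quantile normalization. Ptf1a had -0.35, -1.08 and -1.03 in adult islets, against 3.32, 3.39 and 3.41 in P10 islets, a change of -4.08 ± 0.28 (limma, adjusted p = 0.00221). Rbpjl, its partner, had -5.77, -5.14 and -5.25 in adult islets, against 0.58, 0.65 and 0.66 in P10 islets, a change of -6.12 ± 0.24 (limma, adjusted p = 0.00131). Gata4 and Nr5a2, which act with PTF1 in the exocrine pancreas, changed by -5.58 and -4.24. The probes of these named factors did not lie near the top of the arrays' range, while the list also held a brighter factor.

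RefSeq promoter windows of the GRCr8 assembly, 250 bases before to 50 after the start, were found for 23 of the 30 genes and searched on both strands for the letters of the PTF1 site. The E box CANNTG was in 20 of them (87.0%), beside 71.6% of all 27457 windows. The TC box TTTCCC was in 10 (43.5%, beside 25.2%). Both boxes, not overlapping and with at most 30 bases between them, were in 6 (26.1%, beside 6.10%), namely Cel, Cela1, Ctrb1, Cuzd1, Pla2g1b and Prss2. They were in 0 of 9 endocrine and 0 of 9 enterocyte marker windows. At the share of all windows, lists this short would often hold 0, so these counts show no difference. The stretches below are shown because 3 protease genes share an E box CACCTG and a TC box 4 bases apart, which 9 of the 27457 windows hold (0.0328%). This arrangement was noticed after the windows had been read. The other 6 genes with it were Arpc2, Arrdc5, Drc12, Fbxl2, LOC102554637 and Polr1d, none of them on any list used here. Capitals mark only the closest pair of boxes, on the gene's strand from 5′ to 3′, and Prss2 and Cel carry the TC box as GGGAAA, on the opposite strand. Further E boxes within 30 bases of the TC box, at -130 and -74 from the start in Cela1 and at -141 in Cel, are in lower case.
Cela1: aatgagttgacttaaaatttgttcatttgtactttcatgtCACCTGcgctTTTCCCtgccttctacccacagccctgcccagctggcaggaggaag
Ctrb1: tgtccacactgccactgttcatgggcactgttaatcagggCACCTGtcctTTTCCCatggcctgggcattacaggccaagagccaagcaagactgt
Prss2: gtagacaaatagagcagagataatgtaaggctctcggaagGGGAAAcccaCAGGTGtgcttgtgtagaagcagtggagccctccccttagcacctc
Cel: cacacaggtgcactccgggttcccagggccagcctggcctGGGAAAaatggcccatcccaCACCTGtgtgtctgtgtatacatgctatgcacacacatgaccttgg

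The Cela1 stretch is chr7:133665119-133665214, minus strand, 153 to 58 bases before the start. Ctrb1 is chr19:56567129-56567224, minus strand, 246 to 151 bases before. Prss2 is chr4:71244806-71244901, plus strand, 158 to 63 bases before. Cel, with 14 bases between the boxes, is chr3:32289059-32289164, minus strand, 145 to 40 bases before. All 4 lie upstream of the annotated start. A match of letters is not a bound site. The changes were -2.11 ± 0.22 for Cel, -1.60 ± 0.23 for Ctrb1, -1.20 ± 0.26 for Prss2 and -0.99 ± 0.35 for Cela1, or -1.1, -0.52, -0.11 and 0.11 with quantile normalization, and the differences between these genes were not tested. Of the 10 windows of genes lower with quantile normalization 2 held both boxes close together, as did 4 of 11 windows of genes that did not pass.

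Of 6 further exocrine genes tested out of 13 listed, 6 were lower at the 75th percentile scaling (median -1.43) and 4 with quantile normalization (median -1.0). Aqp12a, a pancreas water channel, changed by -4.20, and Tmed6, a cargo receptor of the secretory route, by -3.49. Nupr1, a stress response gene, changed by -1.45. Of 13 tested genes of granule exocytosis and secretagogue signalling, 6 were lower and 1 higher (median -0.79), or 6 lower and 2 higher with quantile normalization (median -0.25). Rab27b, a granule GTPase, changed by -3.19, Slc12a2, a chloride cotransporter, by -1.56 and Sctr, the secretin receptor, by -1.08. Vamp2, a vesicle fusion protein that islet cells also use, was higher by 1.35. The acetylcholine receptor gene Chrm3 was not tested, as outlier spots left it without a value on adult arrays 1 and 3 and P10 array 2. It was well above background on the other arrays.

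Markers of other cell types differed between the stages too. Of 10 duct genes, 7 were lower and 1, Krt19 (1.66), was higher, or 8 lower and 1 higher with quantile normalization. Cftr, the duct chloride channel, changed by -2.80, Onecut1 by -2.41 and Spp1 by -2.35. The summed level of the duct genes (linear signal over the array's 75th percentile) was 44.7 to 53.6 on the adult arrays, against 97.0 to 100.6 on the P10 arrays. Such sums lean on the brightest genes of a list and do not measure amounts of cells. Of 10 endocrine genes, 2 were lower and 5 higher, or 0 lower and 7 higher with quantile normalization. Pax6 was higher by 2.87 and Neurod1 by 2.45. Ins1 (-0.93) and Gcg (-0.80), lower at the 75th percentile scaling, turned to 0.18 and 0.32 with quantile normalization. The endocrine sum was 543 to 685 in adult islets, against 606 to 666 in P10 islets, and overlapped at this scaling. With quantile normalization it was 1315620 to 1353300 in adult islets, against 664437 to 698295 in P10 islets, without overlap.

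All 10 enterocyte genes tested were lower in adult islets under both scalings, with a median of -8.02, or -7.70. Their summed level was 10.2 to 11.2 on the adult arrays, against 273 to 287 on the P10 arrays. Apoa4 was well above background on 0 of 3 adult arrays, and Fabp1 and Fabp2 on 1 of 3 each. Alpi, the intestinal alkaline phosphatase, was measured throughout and fell by 9.96. Of 5 stromal genes tested, 3 were lower and 1 higher under both scalings (median -1.12, or -0.68). The stromal sum was 53.6 to 56.2 in adult islets, against 106.5 to 114 in P10 islets. It leans on the brightest of these genes, Col3a1 (-1.42, or -0.68 with quantile normalization), while Dcn was higher by 0.90, or 0.995. The part of these other cell types in the acinar changes was not tested. Some listed genes, Slc12a2 and Cftr among them, are expressed in more than 1 of these cell types.

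**Figure D4:**
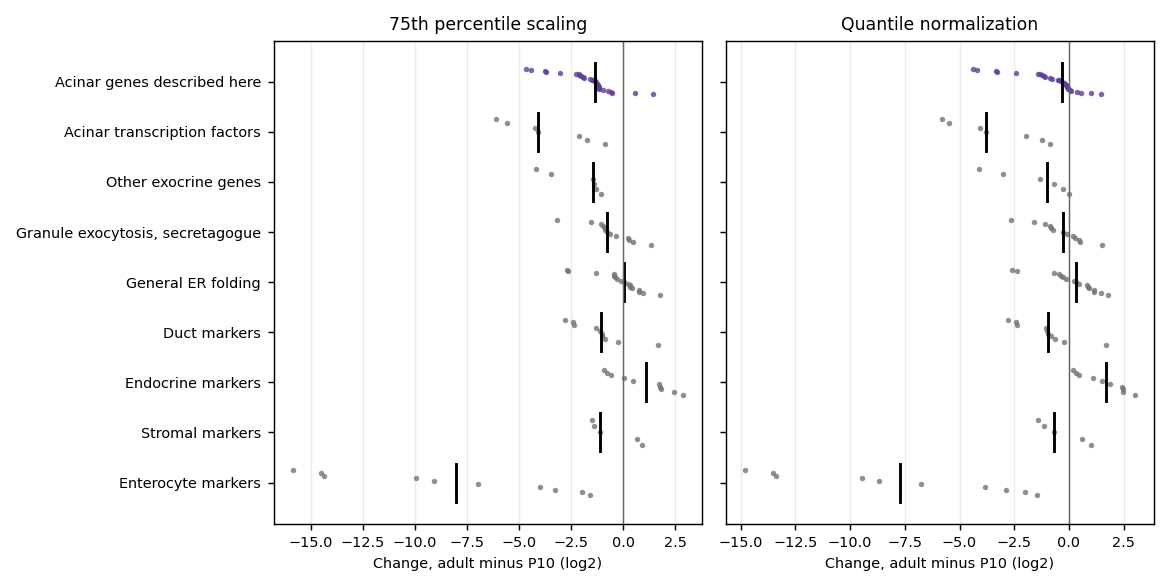
Change between stages (adult minus P10, log2) of each tested gene (points) and the median (bar) for the acinar genes and 8 companion lists, at the 75th percentile scaling (left) and with quantile normalization (right). Acinar transcription factors (median -4.08 and -3.80) and enterocyte markers (-8.02 and -7.70) lie far to the left in both panels, endocrine markers to the right (1.09 and 1.68).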

How the data were processed

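Labelled cRNA of 6 samples was read on 1-colour arrays. The submitters' processing notes name Agilent Feature Extraction 11.0.1.1 for the deposited spot intensity values, which per the file headers had the background subtracted and no scaling across arrays. A table of normalized log2 values deposited by the authors, whose method is not given in the sources used here, was set against them. Its values lay within 0.05 of quantile-normalized signals for at least 99.97% of entries, and 0 columns were left unmatched to a sample.

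Control spots and outlier-flagged spots were left out, log2 signals of a probe were averaged, and the array's 75th percentile was subtracted. Probes well above background on all 3 arrays of a stage entered a fit by lmFit and eBayes (limma 3.58.1, R 4.3.3), and p-values were adjusted by Benjamini and Hochberg's method over every tested probe, with a threshold of 0.05. The scripts were tested on simulated data.

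Between repeated spots of a probe, differences between adult arrays 2 and 3 had an r of 0.03, and those between P10 arrays 1 and 2 had 0.01. Both pairs were averaged. The r was 0.81 to 0.85 for adult array 1 with the others and 0.08 to 0.13 for P10 array 3. The P10 arrays thus differed little among themselves, and counting array 3 apart is a close choice. Deviations of same-numbered arrays from their stage means had r of -0.21, 0.08 and -0.24, against -0.26 to 0.30 for differently numbered ones. As the averaged arrays barely differ, this check could not show whether the numbers pair samples. Slide was read from the scan times. Adult array 1 was on another slide than the other adult arrays, so its difference from them cannot be told apart from slide. Named companion genes are at most the 4 with the largest absolute change per list, plus defining markers. All listed acinar genes are named, and 1 companion gene is not reported here. The normexp alternative used the median spot signal and the median local background. The acinar genes and companion lists were chosen with earlier results of these data known. Protein sequences were not used here. The number of arrays limits the precision.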

Additional observations from a re-analysis of the deposited data

How the results depend on the processing

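Values are adult minus P10 (log2). Quantile normalization, alone, with all 6 arrays or in the authors' deposited log2 values, gave 13 lower and 3 higher, with medians of -0.33, -0.28 and -0.33, and turned Cela1 (0.11, 0.20 and 0.11), Cela2a (0.050, 0.063 and 0.050), Pnlip (0.57, 0.55 and 0.57) and Gp2 (0.38, 0.39 and 0.38). The last 2 settings had 28 genes, without Amy1 and Cuzd1, and there Ctrb1 passed as lower (adjusted p = 0.00978 and 0.0437, limma) and Gp2 as higher (0.00272 and 0.0385). Subtracting the array median gave a median of -1.04. All 6 arrays as separate samples, or with slide as a block, left 1 higher, since Amy1 and Cuzd1 drop out there for a missing spot, and the slide block gave a median of -1.71. Whether the numbers pair samples could not be told, and the fit with a replicate block gave 27 lower, 1 higher and a median of -1.31. Normexp left 1 higher, as did probes well above background on all 6 arrays. The shared slide alone gave a median of -1.62, and with quantile normalization 4 higher and -0.48, turning Pnlip (0.59), Gp2 (0.35) and Zg16 (0.064). Relative to the acinar median, with 9 lower, 5 higher and a median of -0.0033 by construction, the sign turned for Amy2a3 (0.10), Cela1 (0.36), Cela2a (0.20), Cela3b (0.13), Ctrc (0.18), Prss2 (0.15), Pnlip (0.75), Cpb1 (0.030), Pla2g1b (0.036), Gp2 (0.63), Zg16 (0.11), Cuzd1 (0.83) and Cckar (0.20). Leaving out 1 array gave 11 to 28 lower, 0 to 2 higher and medians of -1.39 to -1.16, the lowest counts without P10 replicate 3, where a single counted P10 sample is left. Dropping the dim-probe filter moved no count by over 1.5 times. Averaging all probes of a gene could not move the changes, as each acinar gene had 1 probe.

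Chosen after seeing the data were 2 settings. Without any scaling 10 were lower, 5 higher and the median was -0.14, with Cela1 (0.21), Cela2a (0.062), Ctrc (0.037), Prss2 (0.0042), Pnlip (0.61), Gp2 (0.49), Cuzd1 (0.65) and Cckar (0.057) turned. Without adult replicate 1, which leaves a single counted adult sample assumed to vary like the P10 samples, quantile normalization gave 14 lower, 5 higher and a median of -0.24, with Cela1 (0.40), Cela2a (0.11), Ctrc (0.015), Prss2 (0.011), Pnlip (0.54) and Gp2 (0.40) turned. The cause of the turned signs was not tested. Shares of all probes called are at hand only for the settings where they are given above, so the other counts cannot be set against a share. Before scaling, the array's 75th percentile lay at 10.93 to 11.36 in adult islets and at 9.92 to 9.99 in P10 islets, and the counts without scaling carry that shift. All 30 acinar probes were well above background wherever measured, so the limits are the signals near the top of the range and n = 2 per stage.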
